A study of Mus musculus with 6 samples.

Results

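Urah, the gene of 5-hydroxyisourate hydrolase, is described here with 7 genes of urate formation, purine breakdown and purine salvage: Uox, Xdh, Gda, Pnp, Ada, Hprt and Aprt. The 8 genes were found through the array probes whose accessions map to them in RefSeq, which gave 13 of the 41157 probes with values. Urah was chosen by its log2 difference between erythropoietin-treated and control arrays, in these same arrays, so that difference is a description and carries no test. The other 7 were listed for their place in the pathway, and their differences in that contrast are given in the same way. The 6 arrays came from femoral bone marrow cells of male mice aged 10 weeks, of mixed strain. All carried the genotype ISAM (Epo-/-::3.3K-Epo3'-Tg458), in which the endogenous Epo gene is deleted and an Epo transgene is present; the line is known for severe anemia in the adult. The 3 treated samples came from mice given recombinant human erythropoietin (rHuEPO) at 3000 U/kg into the peritoneal cavity 6 h before collection. The controls were 2 samples taken 6 h after phosphate-buffered saline (PBS) by the same route and 1 untreated sample. No wild-type marrow was used here, so every comparison lies within erythropoietin-deficient marrow.

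Purine nucleotides are either recovered or broken down. Adenosine deaminase (Ada) turns adenosine into inosine, purine nucleoside phosphorylase (Pnp) splits nucleosides into free bases, and the phosphoribosyltransferases Hprt and Aprt return bases to nucleotides. What is not recovered is oxidised: guanine deaminase (Gda) makes xanthine, xanthine dehydrogenase (Xdh) makes urate, and in mice urate oxidase (Uox) converts urate to 5-hydroxyisourate, which Urah hydrolyses on the way to allantoin. Uox and Urah are known mainly as liver enzymes, whereas salvage is a general feature of blood-forming cells. Erythropoietin acts on erythroid progenitors through its receptor, JAK2 and the transcription factor STAT5.

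The promoter of Urah is shown because this was the member that separated treated from control marrow. The sequence below gives the 250 bases before its upstream RefSeq start site, chr7:140834888-140835137 on the plus strand of GRCm38.p6, from RefSeq. Capitals mark the match to TTCNNNGAA, the STAT-type palindrome, which begins 82 bases before the start.

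Urah: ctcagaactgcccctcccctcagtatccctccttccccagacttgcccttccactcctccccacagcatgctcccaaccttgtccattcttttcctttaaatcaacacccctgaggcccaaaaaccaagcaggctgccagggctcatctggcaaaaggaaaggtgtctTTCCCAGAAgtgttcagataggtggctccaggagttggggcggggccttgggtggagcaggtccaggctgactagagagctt

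Over windows of 300 bases (250 before a start and 50 after), searched on both strands, 8.3% of the 32851 RefSeq promoters held TTCNNNGAA. The window of the other Urah start site overlaps this one and held the same match, 223 bases before that start. Among the other members whose promoters were in the table, Ada also held 1 match, 90 bases before its start. The GATA-type motif AGATAA, found in 11.2% of promoters, had 1 match for Uox and 2 for Hprt, and none for Urah. Only that exact string was searched, so variants of it, such as the agatag in the sequence above, were not counted. The MYC-type motif CACGTG, found in 7.15%, had no match for any of the 7 genes with a promoter. These are matches of letters and show no binding.

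Values below are log2 signals minus the array's 75th percentile, so 0 is the signal at that percentile, and differences are on the same log2 scale. Probes differ in brightness for reasons of sequence, so no gene's level is set against another's. That percentile was a signal of 220.7 to 264 units, and the number of arrays limits the precision. Between 46.2% and 50.5% of gene spots were well above background, with the rHuEPO arrays the lowest, and the negative control spots read 4.73 to 5.51 on rHuEPO arrays against 3.74 to 4.03 on controls. The untreated sample and rHuEPO replicate 1 shared slide 1, and the other 4 arrays shared slide 2. The labels do not name separate animals, so p-values reflect the spread among these samples, which may be technical. In whole marrow, fewer cells of a type and less RNA per cell cannot be told apart.

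Urah had 1 probe. It read -1.18, -1.40 and -1.16 on rHuEPO replicates 1, 2 and 3, a mean of -1.25 ± 0.13 (SD, n = 3). It read -4.29 on the untreated array and -4.11 and -5.42 on PBS replicates 1 and 2. The scanner software flagged the spot as well above background in 3 of 3 rHuEPO arrays and 0 of 3 controls, and the groups did not overlap. The lowest signal that counted as well above background on the control arrays was -3.84, -3.73 and -3.74, so the control readings lie below what could be measured. Set against those limits, Urah was at least 5.75-fold higher after rHuEPO, the limit applying to the control mean of 3 arrays. Taking the slides apart, the bound was 6.33-fold for slide 1 (1 against 1 array) and 5.48-fold for slide 2 (2 against 2). The 3 treated arrays differed by less than the gap to any control. The plain difference of readings, 3.36, rests on control readings under the background limit and only the bound is supported. Of 14851 genes tested, Urah was 1 of 11 well above background in every treated and no control array. The opposite pattern was shown by 119 of them. The rHuEPO arrays had the lower share of spots well above background, and its part in these counts was not tested. The pattern was taken from Urah itself, and nothing is read from the counts. With normexp background correction and its offset of 50 the plain difference was 0.54, and the cause of that shift was not tested.

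**Figure D1:**
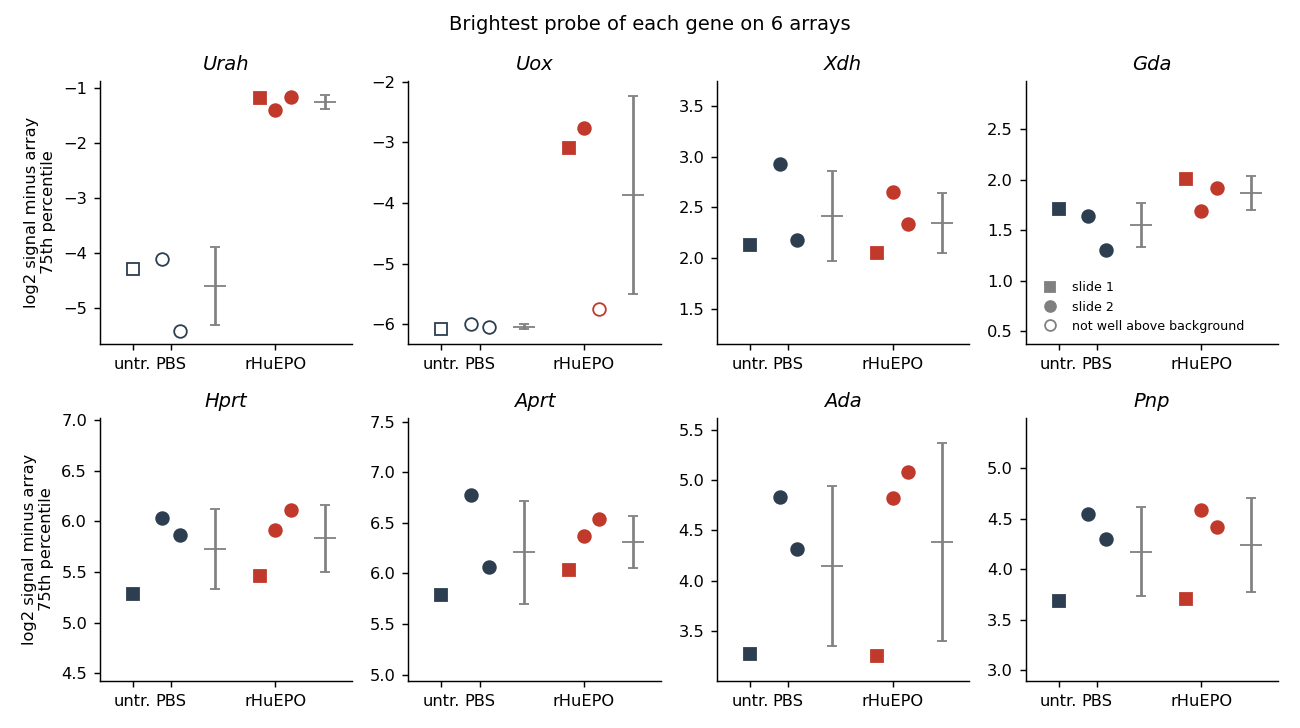
Log2 signal minus the array's 75th percentile for the brightest probe of each of the 8 genes on the 6 arrays, with vertical scales that differ between panels. Squares are slide 1 and circles slide 2, hollow symbols are not well above background, and grey bars give the mean ± SD of each arm of 3 arrays; Urah and Uox are hollow on every control array, and Ada and Pnp are lowest on the slide 1 array of each arm.

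A gene entered the test with 3 or more of its 6 readings well above background. Urah met this with exactly 3, all of them treated, so it could enter the test only through the arm in which it was high. Uox, with 2, fell just short. Of the 7 members tested, 1 was called higher by limma at an adjusted p under 0.05, against 0.0673% of all genes (10 of 14851), and 0 were called lower, against 0% of all genes; 736 genes had an unadjusted p under 0.05. With slide as a block 0.0741% of genes were called higher and 0% lower, and 0 of the 7 members were called, Urah included. The 1 member called in the fit without the block was Urah, which was chosen on this contrast, and nothing is read from the count. The same member was the only one with every rHuEPO array above every control array, a pattern shown by 5.01% of genes. None had the reverse, which 5.39% showed.

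Uox, which makes the substrate of Urah, had 2 probes. The brighter one read -3.10 and -2.77 on rHuEPO replicates 1 and 2, both well above background. On rHuEPO replicate 3 it read -5.74. On the untreated array and PBS replicates 1 and 2 it read -6.07, -5.99 and -6.04, none of them well above background. Thus 2 treated arrays stood clear of the controls and rHuEPO replicate 3 lay with them. No lower bound above 1-fold could be given over the 3 treated arrays, within slide 2, or in any other setting that kept rHuEPO replicate 3. Without that array it was at least 1.79-fold, and within slide 1, which holds replicate 1, at least 1.68-fold. Both settings leave out the treated array that lay with the controls, so nothing is read from them. The other Uox probe was below that flag throughout and read between -5.98 and -5.05, so it did not repeat the pattern. Of 41157 probes, 31 (0.0753%) were well above background in exactly 2 treated and no control arrays and 451 (1.1%) in exactly 2 control and no treated arrays; the pattern was taken from Uox itself, and nothing is read from the counts. Urad, the decarboxylase that acts after Urah, was dim too, with 0 of 6 arrays over the flag. Hepatocyte markers were looked at because liver expresses these enzymes: of 12, 1 had no matched probe, 10 were too dim to test and 1, Tat, was tested, and for 11 of their 15 probes no array passed the background flag. Alb, a defining one, read -1.58 on rHuEPO replicate 1 and between -5.81 and -4.63 elsewhere, and its part in the Uox reading was not tested.

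Xdh, the urate-forming enzyme, was measured on every array and showed no separation. Its brighter probe read 2.05, 2.65 and 2.34 on rHuEPO replicates 1 to 3. The untreated array read 2.13, and PBS replicates 1 and 2 read 2.93 and 2.18. The treated arrays lay inside the range of the controls but for replicate 1, and the difference was -0.07 ± 0.28 (SE, 3 against 3 arrays). Its sign changed with scaling, to 0.33 with normexp background correction. The second Xdh probe gave -0.10.

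Gda, which supplies xanthine from guanine, had readings of 2.01, 1.69 and 1.92 on the treated arrays. The untreated array read 1.71 and the PBS arrays 1.64 and 1.31. Treated replicate 2 lay under the untreated array, so the groups overlapped. The difference was 0.32 ± 0.19 (SE, 3 against 3 arrays) and was 0.29 within slide 1 and 0.33 within slide 2. The second probe, at 0.20, had the same sign.

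**Figure D2:**
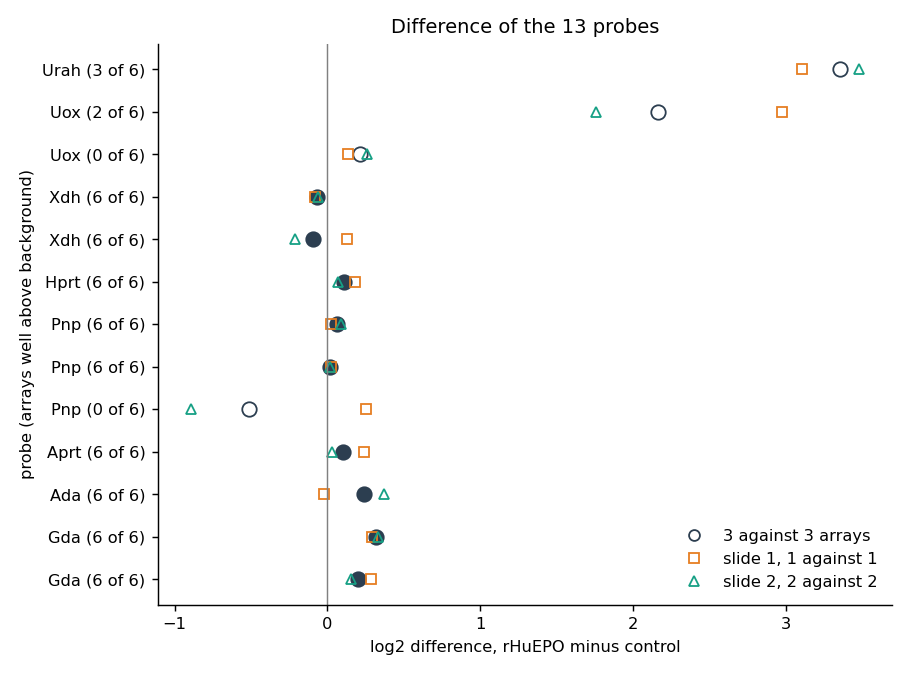
Difference in log2 signal, rHuEPO minus control, for each of the 13 probes, with the number of arrays on which the probe was well above background. Circles are 3 against 3 arrays (filled where control arrays were well above background), squares slide 1 and triangles slide 2; the Urah probe stands at 3.1 and 3.48 in the slides while the 9 filled circles lie between -0.10 and 0.32.

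The readings of the salvage enzymes overlapped between the arms. Hprt, which recovers hypoxanthine and guanine, read 5.46, 5.91 and 6.12 after rHuEPO. Its control readings were 5.28 on the untreated array and 6.03 and 5.87 after PBS. The difference of 0.11 ± 0.27 (SE) was smaller than the SD within either arm. Aprt, which recovers adenine, read 6.03, 6.37 and 6.53 after rHuEPO. The untreated array read 5.79 and the PBS arrays 6.78 and 6.06, and the difference was 0.10 ± 0.29 (SE). For both genes the lowest reading of each arm was the array on slide 1.

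Pnp and Ada, which act before both breakdown and base salvage, had the same shape. Pnp read 3.71, 4.59 and 4.42 on the treated arrays. It read 3.69 on the untreated array and 4.54 and 4.29 on the PBS arrays, a difference of 0.06 ± 0.31 (SE). A second Pnp probe gave 0.02, and the remaining one stayed below the background flag in all 6 arrays. Its paralog Pnp2 had no matched probe, and whether the Pnp probes also detect it was not tested. Ada read 3.25, 4.82 and 5.08 on the treated arrays. It read 3.28 on the untreated array and 4.83 and 4.32 after PBS. The slide 1 array of each arm lay far under the rest, and the difference between arms was 0.24 ± 0.56 (SE), or -0.02 within slide 1 and 0.37 within slide 2. With slide as a block the SE of this difference was 0.19. Against PBS alone the signs of Hprt, Aprt, Pnp and Ada turned, with differences of -0.12, -0.11, -0.18 and -0.19. The untreated array, the lowest control for all 4 genes, then leaves the control mean. Both remaining controls lie on slide 2 while rHuEPO replicate 1 lies on slide 1, so this contrast also carries the slide difference. Within slide 2 the differences were 0.07, 0.03, 0.09 and 0.37. With normexp the differences of Hprt, Aprt and Pnp were 0.52, 0.56 and 0.58, and those of Ada and Gda were 0.78 and 0.58. That of Urah was 0.54, so Urah did not stand out from these genes in that setting.

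The members were not chosen on the slide contrast, though earlier results of these data were known when they were chosen. The slides were compared in an additive fit of arm and slide. Urah was left out of it, since its control readings are below measurement. Ada was 1.5 ± 0.21 (SE) higher on slide 2, a 2.82-fold difference (limma adjusted p = 0.0270). Pnp was 0.76 ± 0.14 higher (limma adjusted p = 0.0360) and Hprt 0.61 ± 0.14 higher (limma adjusted p = 0.0485). Aprt was 0.53 ± 0.22 and Xdh 0.43 ± 0.24 higher, and Gda was -0.22 ± 0.16, with limma adjusted p of 0.162, 0.251 and 0.368. So 3 of 6 members were called higher on slide 2, against 7.2% of all genes, and 0 lower, against 3.44%. Every slide 2 array lay above every slide 1 array for 5 of the 6, a pattern of 28.2% of all genes, and for none was it the reverse, a pattern of 13.6%. The median over all genes was itself 0.11, and 0.25 with median scaling. The second Pnp probe gave 0.62, but the second Xdh probe gave -0.61 where the brighter one gave 0.43. The 3 calls rest on both slide 1 arrays: all 3 ended when either of these was left out (limma adjusted p from 0.159 to 0.293), and when rHuEPO replicate 2 or 3 was left out (0.0949 to 0.150). They also ended with normexp (0.994 for each) and with no filter on dim probes (0.0649 for Ada, 0.0725 for Pnp and 0.0860 for Hprt), and those of Pnp and Hprt with quantile normalization (0.0620 and 0.140). That of Hprt also ended without PBS replicate 2 (0.0574), with the deposited value table (0.0513) and with the mean of all probes (0.0521), so it was kept in 7 of 17 alternatives. The differences of these 3 genes were positive in all 17 alternatives.

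**Figure D3:**
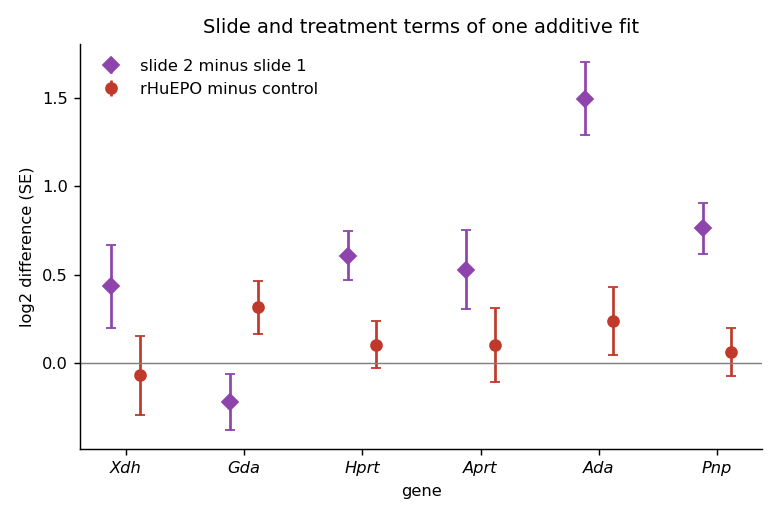
Log2 differences with their SE from the additive fit of arm and slide, for the 6 members measured on every array. Diamonds are slide 2 minus slide 1 and circles rHuEPO minus control; Ada, Pnp and Hprt lie at 1.5, 0.76 and 0.61 for the slide and at 0.24, 0.06 and 0.11 for the treatment.

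The slides carried different samples, so slide, any technical step that went with the slide, and sample cannot be told apart. Marker lists of other cell types are given beside them. The summed linear level of 10 neutrophil markers was 1850 to 1905 on slide 1 and 1910 to 2458 on slide 2. For 7 megakaryocyte and platelet markers it was 63.1 to 151.4 against 162.3 to 287.6. No marker of either list passed the slide test (smallest limma adjusted p of 0.128 and 0.0937). The sums of 12 erythroblast markers, 2343 to 2387 and 2088 to 2458, overlapped, as did those of the B lineage and of T and NK cells, although 0 of 8 B-lineage markers had a slide difference above 0 and their median was -0.67. The markers called between slides were Ccr2 of monocytes, at 1.95 (limma adjusted p = 0.0293), and Pecam1 of endothelium, at -1.62 (limma adjusted p = 0.0247). The part of cell composition in the slide difference of Ada, Pnp and Hprt was not tested.

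Untreated marrow was compared with PBS in a fit of 3 groups, where the single untreated array is assumed to vary as the others do. Of the 6 members measured on every array, 0 were called by limma, as were 0 of all 14851 genes (0% in each direction). None of the 6 had an unadjusted p under 0.05, against 806 of all genes, and the smallest limma p was 0.0920, for Hprt. The differences were -1.30 ± 0.73 (SE) for Ada, -0.73 ± 0.41 for Pnp, -0.67 ± 0.34 for Hprt, -0.63 ± 0.39 for Aprt, -0.42 ± 0.41 for Xdh and 0.24 ± 0.29 for Gda, and with normexp those of Pnp, Hprt, Aprt and Xdh turned to 0.0064, 0.12, 0.17 and 0.17. The untreated sample lay on slide 1 and both PBS samples on slide 2, so group and slide cannot be told apart here.

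The rest of the pathway was followed through 6 lists, of which the members were set aside. Of 9 other tested genes of urate and purine breakdown, 0 passed limma in either direction and 0 had an unadjusted p under 0.05. Their median difference was 0.12, with 7 above 0, against -0.01 for all genes. The median of the list with its members, also 0.12, turned to -0.045 without the untreated array and was 0.11 within slide 2. Leaving out the untreated array leaves slide 1 with no control, here and for the lists below. Nt5c3, placed in this list although it is a pyrimidine nucleotidase of red cell precursors, was at 0.24 ± 0.16 (SE). Itpa, which clears inosine triphosphate, was at 0.24 ± 0.35 (-0.07 against PBS alone), and Nt5e, the surface nucleotidase CD73, was at -0.30 ± 0.19. Of 22 other genes of salvage and interconversion, 0 passed and 3 had an unadjusted p under 0.05: Mtap, which recovers adenine from methylthioadenosine, at 0.66 ± 0.18; Prps1, which makes phosphoribosyl pyrophosphate for salvage and synthesis, at 0.56 ± 0.19; and Adsl, adenylosuccinate lyase, at 0.45 ± 0.18. Their limma adjusted p were 0.720, 0.856 and 0.954. For 7 of these 22 genes every treated array exceeded every control array, as for 5.01% of all genes. The median of the 22 was 0.13. That of the list with its members, 0.11, turned to -0.020 without the untreated array and to -0.0097 without rHuEPO replicate 3. Within slide 2 it was 0.12.

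Among transporters, the exporter Abcg2, which carries urate and porphyrins, had the smallest p of its list. It read 3.72, 3.46 and 3.76 on the treated arrays, 2.58 on the untreated array and 2.11 and 2.96 on the PBS arrays, with no overlap. The difference was 1.09 ± 0.25 (SE, 3 against 3 arrays; limma adjusted p = 0.537, and 0.287 with slide as a block). The nucleoside carriers Slc28a3 and Slc29a1 were at 0.73 ± 0.41 (-0.16 with normexp) and 0.31 ± 0.27. Of the 11 transporters tested 0 passed, and 1 had an unadjusted p under 0.05; their median was 0.05. Beside it, 10 of 12 erythroblast markers had differences above 0, with a median of 0.37, while their summed level overlapped between arms (2088 to 2458 after rHuEPO, 2091 to 2387 in controls). No marker passed the test, and the part of erythroblast content in these values was not tested.

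Of 12 genes of extracellular adenosine, 0 passed and 1 had an unadjusted p under 0.05, with a list median of 0.03, which turned to -0.15 at the lowest when 1 array, the untreated one, was left out, and also fell below 0 without rHuEPO replicate 2. The ectonucleotidase Entpd3 led it at 1.26 ± 0.45 (SE; limma adjusted p = 0.890), or 0.76 without the untreated array. Its slide difference of 1.12 was itself called (limma adjusted p = 0.0371). Entpd2 was at 0.28 ± 0.23 (-0.44 with normexp). De novo synthesis, which meets salvage at inosinate, had the highest list median, 0.26 over 10 genes with 8 above 0 and 5 for which the treated arrays all exceeded the controls, against 5.01% of all genes. Adsl, Gmps, Impdh1, Impdh2 and Adss also belong to the salvage list. Adsl, Gmps and Impdh2 are thus counted in both lists among the genes whose treated arrays all exceeded the controls. None of the 10 genes passed and 1, Adsl, had an unadjusted p under 0.05. Gart and Ppat, enzymes of the early steps, were at 0.45 ± 0.20 and 0.59 ± 0.33. Pyrimidine salvage and breakdown had a median of 0.07 over 12 genes, with 0 called and 0 under that p; the median was -0.057 without the untreated array, -0.038 without rHuEPO replicate 3 and 0.34 with normexp. Its leading genes, Dctd (dCMP deaminase), Tymp (thymidine phosphorylase) and Upb1 (beta-ureidopropionase), were at 0.43 ± 0.20, 0.35 ± 0.17 and -0.28 ± 0.16, those of Dctd and Upb1 turning to -0.32 and 0.0026 with normexp.

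**Figure D4:**
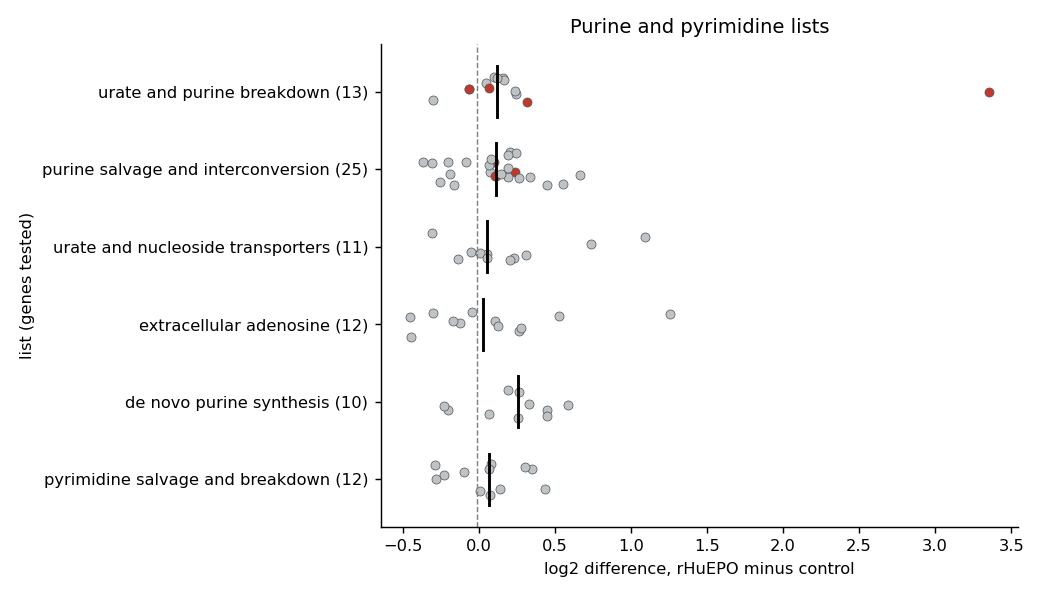
Log2 difference, rHuEPO minus control, of each tested gene of the 6 lists, with the number tested. Red points are members, the other points further genes of the list, black bars list medians and the dashed line the median of all genes, -0.01; Urah stands alone at 3.36, a reading whose control side is below background.

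The genes whose pattern over the 6 arrays was most like that of Urah were found by Pearson correlation among 3060 named genes that varied by at least 1 log2 unit. The arrays share treatment and slide, so r is a measure of likeness only. The control readings of Urah lie below the background limit, so r rests in part on readings that were not measured. It also follows the difference between arms by which Urah was chosen. Erfe, the erythroblast hormone that acts on hepcidin, had r = 0.977. Like Urah it passed the background flag in no control, and it read 0.91, 0.58 and 0.98 on the treated ones. Ccdc189, a coiled-coil gene, followed with r = 0.973, reading 0.96, 1.25 and 1.19 after rHuEPO and -0.29, -0.08 and -0.34 in the controls. Noct, nocturnin, had r = 0.969. Trim15, of the tripartite motif family, had 0.964, Igfbp2, which binds insulin-like growth factors, 0.955, and Grtp1, a TBC domain gene, 0.953. Trim15 and Igfbp2 likewise passed the flag in no control, while Ccdc189, Noct and Grtp1 passed it on all 3. Erfe, Trim15 and Igfbp2 could thus enter the comparison only through the treated arm, and nothing is read from their place in it.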

How the data were processed

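Cy3-labelled total RNA was hybridised to 1-colour Agilent arrays, per the labels' protocols. Per the file headers, the scanner software was Feature Extraction 10.7.3.1, and the deposited intensity values are linear and background-subtracted. The deposited value table holds log2 values of a scaling that no source used here states. It was set against scanner values brought to the 75th percentile, with each probe's median removed. The lowest slope was 0.999, which settles scale and direction. The median absolute difference per array was 0.0013 to 0.0131, which bears on centring. Its column medians were -0.103, -0.0569, -0.0976, 0.117, 0.0111 and 0.0867 (untreated, PBS 1 and 2, rHuEPO 1 to 3).

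The values used here are log2 processed signals from which each array's 75th percentile (log2) was taken away. The 1639 control spots, outlier spots and 17 probes without a value on every array were left out, and no gene spot was saturated. Accessions were matched to a RefSeq table of GRCm38.p6, naming 26670 probes (64.8%). A gene took its brightest probe among 19588 tested, giving 14851 genes. Tests used R 4.3.3 and limma 3.58.1 (lmFit, eBayes, two-sided, Benjamini-Hochberg, threshold 0.05), in fits of arm, of 3 groups, and of arm and slide, and were tested on simulated data. A bound sets the treated mean against, per control array, the higher of the reading and the lowest signal well above background there. Array correlations of 0.964 to 0.991 led to no merging.

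Members and lists were chosen with earlier results of these data known. Named genes were all members with every probe, the 3 genes of each list with the smallest p or any that passed, and the 6 most like Urah. Alternatives covered scaling, background, filter, probe choice, variance, weights, controls, blocks and leaving out arrays. Normexp used median signals, since the files hold no mean signal column.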

Additional observations from a re-analysis of the deposited data

How the results depend on the processing

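With 6 arrays, 10 genes were called higher after rHuEPO; the number was 1 with normexp, 1 with no filter on dim probes, 5 with the filter at all 6 arrays, 24 with array weights (and 3 lower), 3 with PBS as the only control and 1 to 6 when an array was left out. The Urah difference was 0.54 with normexp and 2.95 to 3.60 without one array, and its bound was 2.66 (log2) in slide 1 and 2.48 to 2.60 without one array. Itpa changed sign to -0.068 against PBS alone, which is also the value without the untreated array, and reached 0.53 without rHuEPO replicate 1. With normexp, Slc28a3 was -0.16, Entpd2 -0.44, Dctd -0.32 and Upb1 0.0026. List medians, members included, were then 0.66 for de novo synthesis, 0.50 for salvage and interconversion and 0.43 for urate and purine breakdown. Those of pyrimidine genes, transporters and extracellular adenosine were 0.34, 0.28 and -0.10, against 0.07 for all genes. In the pyrimidine list 1 gene, Cda, was called with the filter at 2 arrays, added after seeing the data. In untreated against PBS, 67 genes were called higher and 3 lower with no filter and 1 and 1 with array weights; Xdh turned to 0.17 with normexp and 0.0089 with the mean of its probes, and Hprt, Pnp and Aprt to 0.12, 0.0064 and 0.17 with normexp. Between slides, 1069 genes higher and 511 lower became 2653 higher with median scaling, 0 and 0 with normexp, 11 and 4 with no filter, 1692 and 1212 over single probes, 2966 and 1543 with array weights, and 0 to 1512 higher and 0 to 889 lower when an array was left out, and Xdh turned to -0.088 with the mean of its probes. The cause of these shifts was not tested. Values near the background flag, as for Urah, Uox and Cda, are limited by signal over background.

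Whether the replicate numbers that PBS and rHuEPO share pair the samples could not be decided. Deviations of same-numbered samples from their group means correlated at -0.072 and -0.16. With 2 PBS arrays these deviations mirror each other, so the value for the other PBS array has the opposite sign by construction. The replicate 1 arrays of PBS and rHuEPO also lay on different slides. With the replicate block 1 gene was called higher, the Urah difference was 3.44 and that of Itpa -0.016.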

Other observations

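Cytidine deaminase (Cda), a pyrimidine salvage gene, was too dim for the test and is named after its values were seen. It read -2.90, -3.59 and -2.98 on rHuEPO replicates 1 to 3, of which 2 were well above background, and -5.74 on the untreated array and -5.95 and -6.03 on the PBS arrays. Having been above the flag in treated arrays alone, it could enter a test only through the arm in which it was high, and nothing is read from its call when probes well above background on only 2 arrays were admitted, an alternative added after seeing the data. In that fit, over 15470 genes, the difference of Uox was 2.17 ± 0.73 (SE), resting on 2 treated arrays.

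The protein-coding genes next to Urah in the RefSeq order were looked at after its values were seen. Of the 4 on either side, Bet1l and Ric8a were measured on all 6 arrays, with differences of 0.14 ± 0.18 and -0.01 ± 0.19 (SE). Olfr541, Cyp2e1, Syce1, Zfp941 and Scgb1c1 were too dim to test, and Odf3 had no matched probe.

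The slide contrast was also read over the 70 tested genes of these lists that are not members. It called 9 higher on slide 2 (12.9%, against 7.2% of all genes) and 2 lower (2.86%, against 3.44%), and these are named after their values were seen. The 9 were Enpp1 at 1.47 ± 0.20 (SE), Gmpr at 1.17 ± 0.19, Entpd3 at 1.12 ± 0.22, Impdh1 at 0.93 ± 0.16, Uck2 at 0.90 ± 0.15, Itpa at 0.89 ± 0.12, Nt5c at 0.74 ± 0.14, Enpp4 at 0.64 ± 0.14 and Uckl1 at 0.56 ± 0.13. The 2 lower were Ampd3, the AMP deaminase of red cells, at -1.04 ± 0.24, and Pfas, an enzyme of de novo synthesis, at -0.96 ± 0.22. Their limma adjusted p lay between 0.0270 and 0.0496.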
